A study of Mus musculus with 2 samples.

Results

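The 10 genes described here belong to the Notch pathway: the receptors Notch1, Notch2 and Notch3, the ligands Dll1, Dll3 and Jag1, the target repressors Hes1, Hes5 and Hey1, and Hes6, a relative that opposes Hes1. They were taken by symbol, and all 10 were found among the 28001 genes of the single-cell count tables. RNA was measured in dissociated cells of the mouse forebrain at postnatal day 0 (P0), taken from lateral and dorsal cortex and hippocampus of both hemispheres on the C57BL/6J background. A pool of 4 Gmnc-/- animals, which came from 2 litters and lack the multiciliated-cell regulator Gmnc, gave 1 library. A pool of 4 wild-type littermates of these animals gave the other. The part of Gmnc that is deleted is not given in the sources used here.

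Each genotype is 1 library of pooled animals, so no difference between genotypes could be tested and none of the intervals below describes animals. Levels are unique molecular identifiers (UMIs, counted mRNA molecules) scaled to the total of all UMIs of that class and given as counts per 1000000 (CPM), with 95% exact Poisson intervals that cover counting error only. The 3' assay counts molecules, so levels were not divided by gene length. After filtering, 10478 wild-type and 21184 Gmnc-/- cells were kept, with a median of 5994.5 and 4484 UMIs and a median mitochondrial share of 3.29% and 1.21%. The libraries shared 85 barcodes, 54 of them among kept cells. Gmnc itself had 64 wild-type UMIs (0.812 CPM, interval 0.626 to 1.04) and 89 Gmnc-/- UMIs (0.821 CPM, interval 0.660 to 1.01). A 3' count outside the deleted part checks nothing about the genotype. Ependymal-like cells numbered 122 wild-type and 0 Gmnc-/-, and Cajal-Retzius-like cells 37 and 1.

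Notch signalling passes between touching cells. A ligand of the Delta or Jagged family on one cell makes the receptor on its neighbour open to cleavage, and the freed intracellular domain joins the DNA-binding protein RBPJ and Mastermind to switch on Hes and Hey genes, whose products repress proneural genes such as Neurog2. In the embryonic and newborn forebrain this keeps radial glia and other progenitors undifferentiated while neighbours that make Delta move on to become neurons. In blood vessels the same pathway works between endothelial cells and the mural cells (pericytes and smooth muscle) around them, with Notch3 as the mural receptor.

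Promoter windows of the members, the 250 bases before each RefSeq start on build GRCm38.p6, were read for letters known from this pathway. RefSeq windows were matched for 8 of the 10 genes, in 10 windows, and Hes1 and Hey1 had no entry. The RBPJ core GTGGGAA, on either strand, was present in the Hes5 window alone, with 2 matches whose first bases lie 226 and 83 bases before the start. Of 32841 RefSeq windows of the same length, 1778 (5.41%) hold it. The Hes5 window, chr4:154960673-154960922 on the plus strand, is shown because Hes5 had the largest share of its UMIs in 1 progenitor class among the members, and differed by over 1.5-fold between the libraries. It lies directly upstream of Hes5 and overlaps an exon of Gm20421, a transcript on the opposite strand. Capitals mark the RBPJ core, once read from the other strand. A match of letters is a description of the window and not a binding site.
Hes5: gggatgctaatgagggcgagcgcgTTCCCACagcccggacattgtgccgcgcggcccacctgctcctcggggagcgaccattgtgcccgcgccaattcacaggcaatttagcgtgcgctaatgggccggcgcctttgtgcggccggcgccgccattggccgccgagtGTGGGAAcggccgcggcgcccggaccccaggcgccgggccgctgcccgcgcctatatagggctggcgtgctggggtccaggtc

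Cells were clustered without the 10 genes and without 44 other listed pathway genes, and clusters were named from marker lists. Of 34 clusters, 4 stayed unnamed (2743 cells), 2 of them because they scored under a minimum set after the data were seen. Those 2 held 2.35% and 3.59% of wild-type and 2.88% and 1.95% of Gmnc-/- cells. Apical progenitors (radial glia) and astrocytes were not separated and form the class called astroglia-like, with 1909 wild-type and 3932 Gmnc-/- cells in clusters 1, 6 (led by the astrocyte gene Aqp4), 8 (cycling) and 21 (with Ttr among its leading genes). No apical progenitor marker was at 0 there, and the 8 of them summed to 23050 and 18040 CPM (wild-type, then Gmnc-/-, the order of every pair of values from here on). The 8 astrocyte markers summed to 2641 and 3230 CPM. The 11 classes with 50 or more cells in each library were put in order for each gene. Erythroid-like cells, which should lack these genes, are given as a guide to free RNA and not as a floor. The 8 apical progenitor markers summed to 262 and 715 CPM in them. In the Gmnc-/- library they had more Hes5, at 21.8 CPM (16.5 to 28.4), than endothelial-like cells, at 5.38 CPM (2.78 to 9.39).

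Genes of the same role did not always share their highest class. The highest class was a progenitor class in both libraries for 5 of the 10 genes: Notch1, Notch2, Hes5 and Hey1 in astroglia-like cells and Hes6 in intermediate progenitor-like cells. The share of all genes with a progenitor class highest was not counted. The delta-like ligands Dll1 and Dll3 were highest in oligodendrocyte lineage-like cells, and Jag1 and Hes1 in endothelial-like cells, in both libraries. Notch3 was highest in astroglia-like cells of the Gmnc-/- library. In the wild-type library endothelial-like and astroglia-like cells led for Notch3, with overlapping intervals. Mural-like cells, left out of the order, stood above every ordered class for Notch3 in both libraries. For Hes1 they did so by intervals that did not overlap in the wild-type library alone. Excitatory neuron-like cells were low for 9 of the genes, with levels between 2.52 and 13.1 CPM in the wild-type library, and Hes6 at 80.9 CPM was the exception. The plot of level by class shows these patterns side by side.

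**Figure D1:**
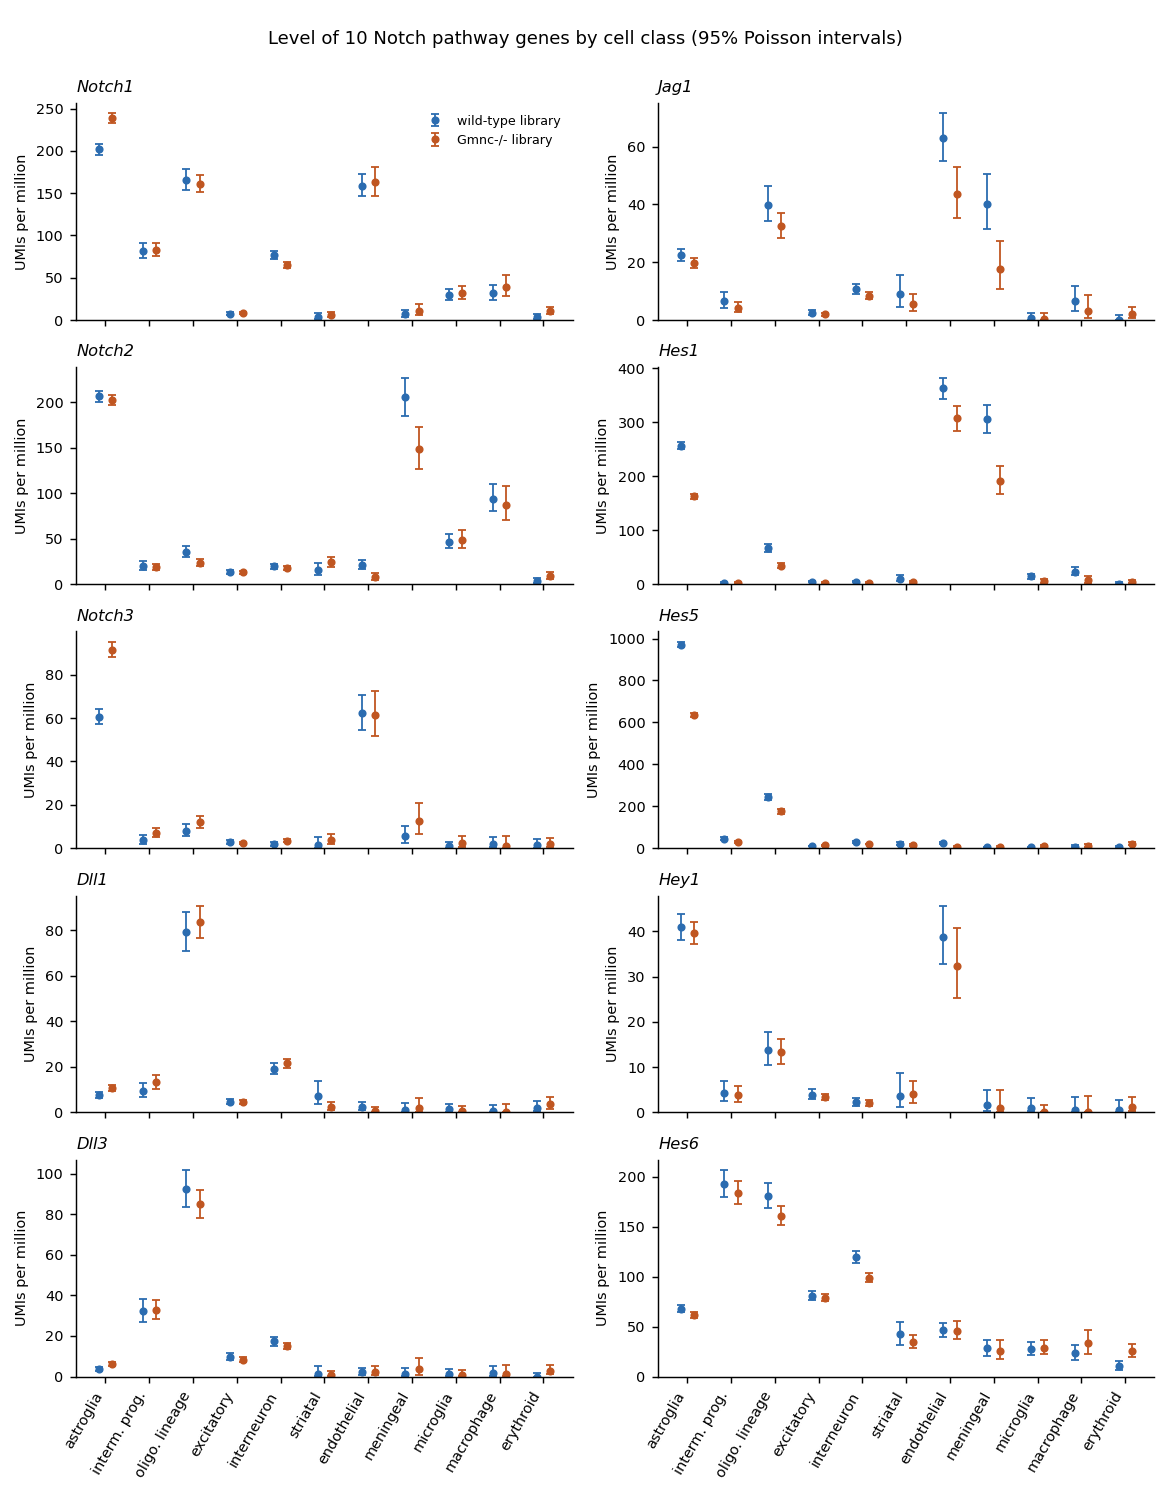
Level of each gene in CPM (vertical axes, each from 0 and scaled to its gene) in 11 cell classes, with the wild-type library in blue and the Gmnc-/- library in orange; points are summed levels and bars 95% Poisson intervals, 1 library each. Hes5 stands at 971 and 635 CPM in astroglia-like cells and at 29.8 CPM or less in every neuron-like class, while Hes6 is spread over progenitor and neuron classes.

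Notch1 (chr2:26457903-26516663, minus strand, GENCODE vM21 on GRCm38, as for all positions below), the main receptor of neural progenitors, stood at 202 CPM (interval 196 to 208) in astroglia-like cells of the wild-type library and at 238 CPM (233 to 244) in the Gmnc-/- library. Oligodendrocyte lineage-like cells had 165 and 161 CPM and endothelial-like cells 159 and 163 CPM, and the intervals of these classes overlapped. Intermediate progenitor-like cells followed with 81.6 CPM (72.9 to 91.1) and 82.9 CPM (75.6 to 90.6), and interneuron-like cells with 76.8 CPM (72.1 to 81.7) and 65.3 CPM (62.0 to 68.7). The last pair of classes overlapped in the wild-type library and stood apart in the Gmnc-/- library. Excitatory neuron-like cells had only 7.50 and 8.60 CPM, near the 3.56 and 10.9 CPM of erythroid-like cells. Notch1 was thus higher in the interneuron-like class, while excitatory neuron-like cells were near the level of erythroid-like cells. These 2 classes also differed in cycling cells. The 6 cycling markers summed to 4473 and 3700 CPM in interneuron-like cells and to 174 and 147 CPM in excitatory neuron-like cells. Interneuron-like cells that were not cycling had less Notch1 than those that were, as given below. On the opposite strand Notch1 overlaps 0610009E02Rik and Gm13568, whose reads cannot be told apart from its own unless counting used strand.

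Notch2 (chr3:98013527-98150361, plus strand), a receptor also made by mesenchymal and myeloid cells, had 207 CPM (201 to 213) in astroglia-like cells of the wild-type library and 203 CPM (197 to 208) in the other. Meningeal fibroblast-like cells came next with 205 CPM (185 to 227) and 149 CPM (127 to 173), so the first classes overlapped in the wild-type library alone. Macrophage-like cells had 94.1 and 87.5 CPM and microglia-like cells 46.9 and 48.8 CPM. Within astroglia-like cells Notch2 was uneven: cluster 1 had 325 and 323 CPM, against 123 and 113 CPM in the Aqp4-led cluster 6 and 131 and 104 CPM in the cycling cluster 8. Notch1 was nearly level across the same clusters, between 180 and 208 CPM in the wild-type library and between 213 and 252 CPM in the Gmnc-/- library.

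Notch3 (chr17:32120820-32166852, minus strand), a receptor of radial glia and mural cells, had at most 12.4 CPM in any ordered class other than astroglia-like and endothelial-like cells. It overlaps Gm17276 on the opposite strand. Astroglia-like cells had 60.5 CPM (57.2 to 64.0) and 91.5 CPM (87.9 to 95.2), and endothelial-like cells 62.1 CPM (54.4 to 70.6) and 61.4 CPM (51.5 to 72.6). Mural-like cells, with only 46 and 50 cells and so left out of the order, had 297 CPM (238 to 367) and 435 CPM (335 to 555) from 87 and 64 UMIs. The endothelial-like level moved with mural RNA. The 7 mural markers summed to 2117 and 1804 CPM in endothelial-like cells, with none at 0. Endothelial-like cells with UMIs of under 3 of those markers (117 and 89 cells, median 2458 and 5252 UMIs) had 3 Notch3 UMIs in each library, or 3.54 CPM (0.731 to 10.4) and 5.34 CPM (1.10 to 15.6). Those with 3 or more (101 and 89 cells, median 24560 and 14887 UMIs) had 79.1 and 80.2 CPM. This split was added after the data were seen and also divides the cells by depth.

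Dll1 (chr17:15367354-15376872, minus strand), the ligand of cells leaving the progenitor state, had 79.1 CPM (70.9 to 87.9) and 83.6 CPM (76.8 to 90.7) in oligodendrocyte lineage-like cells. Interneuron-like cells were next with 19.0 CPM (16.7 to 21.5) and 21.5 CPM (19.6 to 23.5), and intermediate progenitor-like cells had 9.41 and 13.2 CPM. Astroglia-like cells had 7.61 CPM (6.47 to 8.90) and 10.6 CPM (9.37 to 11.9), against 2.03 and 3.51 CPM in erythroid-like cells. Of all Dll1 UMIs, 35.5% (binomial interval 32.5 to 38.7) and 35.0% (32.7 to 37.4) came from the oligodendrocyte lineage-like class, and 26.0% (23.2 to 28.9) and 29.7% (27.5 to 32.0) from interneuron-like cells. Dll1 overlaps A930024N18Rik on the opposite strand, and whether counting used strand is not given in the sources used here.

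Dll3 (chr7:28293553-28302238, minus strand), a divergent ligand that stays largely inside the cell, was highest in the same class, with 92.3 CPM (83.5 to 102) and 85.0 CPM (78.2 to 92.3). Its second class was intermediate progenitor-like cells, with 32.3 CPM (26.9 to 38.4) and 32.7 CPM (28.2 to 37.8), clear of interneuron-like cells at 17.3 and 15.02 CPM. Astroglia-like cells were low for Dll3, with 3.64 CPM (2.86 to 4.56) and 6.15 CPM (5.25 to 7.16). The oligodendrocyte lineage-like class joined 2 clusters. Cluster 9, led by Pdgfra and Sox10, had Dll1 at 63.1 and 78.3 CPM and Dll3 at 97.5 and 96.1 CPM. Cluster 16, led by Egfr with Olig1 and Olig2, had Dll1 at 97.96 and 88.7 CPM and Dll3 at 86.2 and 74.1 CPM.

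Jag1 (chr2:137081456-137116644, minus strand), a ligand of endothelium and of some progenitors, had 62.9 CPM (55.2 to 71.5) and 43.5 CPM (35.2 to 53.0) in endothelial-like cells. Meningeal fibroblast-like cells had 40.3 CPM (31.6 to 50.7) and 17.7 CPM (10.8 to 27.3), oligodendrocyte lineage-like cells 39.9 and 32.4 CPM, and astroglia-like cells 22.6 CPM (20.6 to 24.7) and 19.7 CPM (18.0 to 21.4). Endothelial-like cells stood apart from the next class, meningeal fibroblast-like cells, in the wild-type library. In the Gmnc-/- library the next class was oligodendrocyte lineage-like cells (28.3 to 37.0), and its interval overlapped. In the Egfr-led cluster 16 Jag1 reached 71.9 CPM (60.6 to 84.8) and 54.6 CPM (47.0 to 63.0), while the Pdgfra-led cluster 9 had 12.9 CPM (8.69 to 18.4) and 9.82 CPM (6.76 to 13.8). The intervals of the clusters did not overlap for Jag1 in either library.

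Hes5 (chr4:154960923-154962371, plus strand), a repressor that answers directly to the Notch intracellular domain, had 971 CPM (958 to 985) in astroglia-like cells of the wild-type library and 635 CPM (625 to 644) in the Gmnc-/- library. That class held 88.5% (88.1 to 88.9) and 86.8% (86.3 to 87.3) of all Hes5 UMIs. Oligodendrocyte lineage-like cells had 244 and 175 CPM, intermediate progenitor-like cells 44.5 and 31.9 CPM, and interneuron-like cells 29.8 and 20.1 CPM. Excitatory neuron-like cells had 11.3 and 13.5 CPM, against 6.61 and 21.8 CPM in erythroid-like cells. Neuron levels of Hes5 were thus not above those of erythroid-like cells in the Gmnc-/- library. The Aqp4-led cluster 6 was highest, with 1641 and 1042 CPM, and the cycling cluster 8 had 642 and 423 CPM. Hes5 overlaps Gm20421 on the opposite strand, with strand use in counting not given in the sources used here.

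Hes1 (chr16:30064384-30067796, plus strand) is the target shared by progenitors and vessels. Among the ordered classes it was highest in endothelial-like cells, with 363 CPM (344 to 383) and 307 CPM (285 to 331). Meningeal fibroblast-like cells had 306 CPM (281 to 332) and 192 CPM (167 to 219), and astroglia-like cells 257 CPM (250 to 264) and 163 CPM (158 to 168). These classes stood apart from each other in the wild-type library, while the meningeal and astroglia-like intervals of the Gmnc-/- library just overlapped. Mural-like cells, left out of the order, had 479 CPM (403 to 565) and 333 CPM (246 to 440) of Hes1, from 140 and 49 UMIs. That was above the endothelial-like interval in the wild-type library and overlapped it in the Gmnc-/- library. Intermediate progenitor-like cells had 2.29 and 2.79 CPM of Hes1 from 9 and 16 UMIs. That is at the level of erythroid-like cells, 1.02 and 3.90 CPM. Hey1 (chr3:8663359-8667256, minus strand), a target of both tissues, had 40.8 CPM (38.1 to 43.7) and 39.6 CPM (37.3 to 42.0) in astroglia-like cells and 38.8 CPM (32.7 to 45.6) and 32.3 CPM (25.2 to 40.6) in endothelial-like cells, with overlapping intervals. Oligodendrocyte lineage-like cells had 13.8 and 13.3 CPM of Hey1, and the other ordered classes 4.32 CPM or less.

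Hes6 (chr1:91411483-91414038, minus strand), which promotes neuronal differentiation by countering Hes1, had 193 CPM (180 to 207) and 184 CPM (173 to 195) in intermediate progenitor-like cells. Oligodendrocyte lineage-like cells had 181 CPM (168 to 194) and 161 CPM (152 to 171), interneuron-like cells 119 and 99.1 CPM, excitatory neuron-like cells 80.9 and 78.8 CPM, and astroglia-like cells 67.8 and 61.9 CPM. The first 2 classes overlapped in the wild-type library and not in the Gmnc-/- library. Hes6 was split within the oligodendrocyte lineage-like class, with 292 and 232 CPM in the Egfr-led cluster 16 and 87.6 and 88.4 CPM in the Pdgfra-led cluster 9. In erythroid-like cells it had 10.2 and 25.4 CPM.

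Between the libraries, the intervals of Hes1, Hes5, Jag1 and Hes6 lay below 1 and those of Notch1, Notch3, Dll1 and Dll3 above 1 in astroglia-like cells (Gmnc-/- over wild-type), while Notch2 and Hey1 spanned 1. The share of all genes with intervals that exclude 1 was not counted. Genes with a mean of 20 CPM or more over the 2 libraries were counted as different at 1.5-fold or more, on log2(CPM + 5). In astroglia-like cells 8 of the 10 genes had that mean. Hes1 and Hes5 were lower in the Gmnc-/- library and no member was higher, where 8.68% of 7650 genes differed in either direction, 4.88% higher and 3.8% lower. The Hes1 ratio was 0.633 (conditional interval 0.608 to 0.659) and the Hes5 ratio 0.653 (0.640 to 0.667). Notch3 had a ratio of 1.51 (1.41 to 1.62), which is 0.56 on the log2(CPM + 5) scale and just inside the line, and Notch1 a ratio of 1.18 (1.14 to 1.23). Jag1 had a ratio of 0.872 (0.769 to 0.990), Hes6 of 0.913 (0.850 to 0.981), Hey1 of 0.970 (0.885 to 1.06) and Notch2 of 0.980 (0.942 to 1.02). Dll1 and Dll3, under the minimum, had ratios of 1.39 (1.14 to 1.70) and 1.69 (1.28 to 2.25). On the log2 scale the 8 genes had a median of -0.08 and all 7650 genes a median of 0.17. After a scaling that sets the median gene to no change, a shift of 0.18, Hes1 was at -0.82, Hes5 at -0.79, Notch3 at 0.38 and Notch1 at 0.06.

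Hes1, Hes5, Notch3 and Notch1 kept these directions in each of the 4 astroglia-like clusters. Hes1 ratios ran from 0.544 in the Aqp4-led cluster 6 (336 and 183 CPM) to 0.709 in cluster 1 (260 and 185 CPM). Hes5 ratios ran from 0.635 in cluster 6 to 0.693 in cluster 21, where the levels were 643 and 445 CPM. Notch3 ratios ran from 1.42 in cluster 8 (40.4 and 57.5 CPM) to 1.95 in cluster 21 (13.7 and 26.7 CPM), and Notch1 ratios from 1.17 to 1.21. All 16 of these intervals excluded 1, as the plot of ratios by cluster shows. They cover counting error only, the clusters come from the same libraries, and the share of all genes with such intervals was not counted. The median gene of the whole class had a ratio of 1.14, near the Notch1 ratios. Choroid plexus markers differed in this class, summing to 2178 and 600 CPM, nearly all of it Ttr at 2155 and 591 CPM. Without the Ttr-led cluster 21, Hes1 was at -0.64 and Hes5 at -0.62 on the log2 scale. The libraries also differed in their mix of sexes, with 7088 and 9675 kept cells of female and 1585 and 5430 of male pattern. Hes1 was at -0.68 in female-pattern and -0.68 in male-pattern astroglia-like cells, Hes5 at -0.60 and -0.52, and Notch3 at 0.51 and 0.77.

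**Figure D2:**
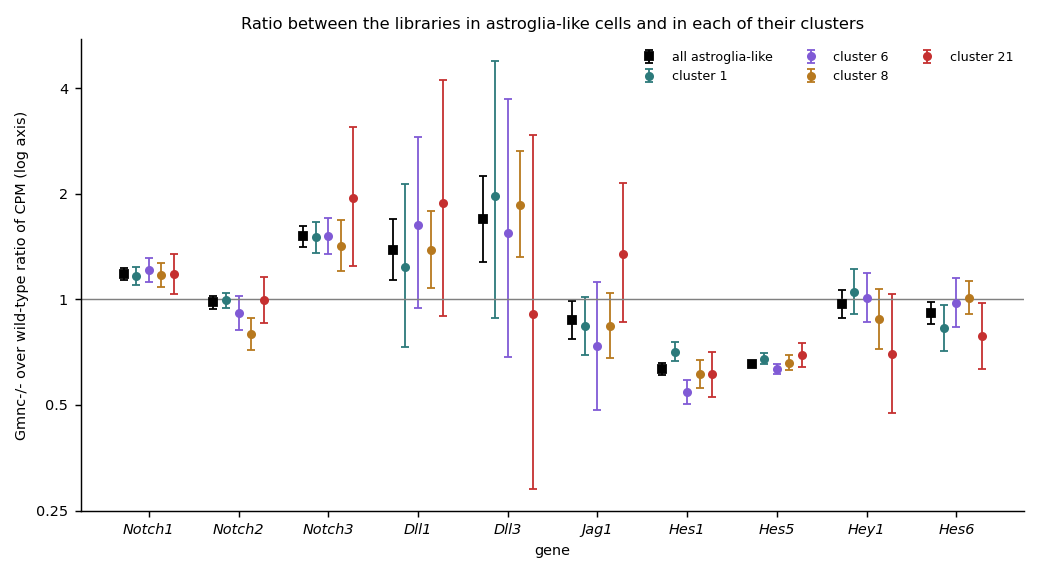
Ratio of CPM, Gmnc-/- over wild-type library, for each gene (horizontal axis) on a log axis; black squares are all astroglia-like cells, coloured points their 4 clusters, and bars 95% conditional intervals for counting error. Hes1 and Hes5 lie below 1 and Notch1 and Notch3 above 1 in every cluster, while Dll1 and Dll3 have wide intervals.

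The ratios also moved with the length of genes. Across 7640 genes of astroglia-like cells, those spanning under 10 kb on the genome had a median log2 ratio of -0.21 (1471 genes) and those over 100 kb a median of 0.32 (1532 genes). Hes5 spans 1.45 kb and Hes1 3.41 kb, while Notch3 spans 46.0 kb and Notch1 58.8 kb. Of the 1471 short genes, 171 (11.6%) were lower at 1.5-fold. Hes5, at -0.61, lay between the 10th and 90th percentiles of the 172 genes under 2 kb, -1.001 and 0.03. Hes1, at -0.64, lay below the 10th percentile of the 543 genes of 2 to 5 kb, -0.61. Notch3, at 0.56, lay above the 90th percentile of the 2072 genes of 20 to 50 kb, 0.51. Notch1 was at 0.24 against a median of 0.26 among the 1342 genes of 50 to 100 kb. Hey1 (3.90 kb) and Hes6 (2.56 kb), short genes too, were at -0.04 and -0.12. The part of span, depth or mitochondrial share in the differences was not tested.

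**Figure D3:**
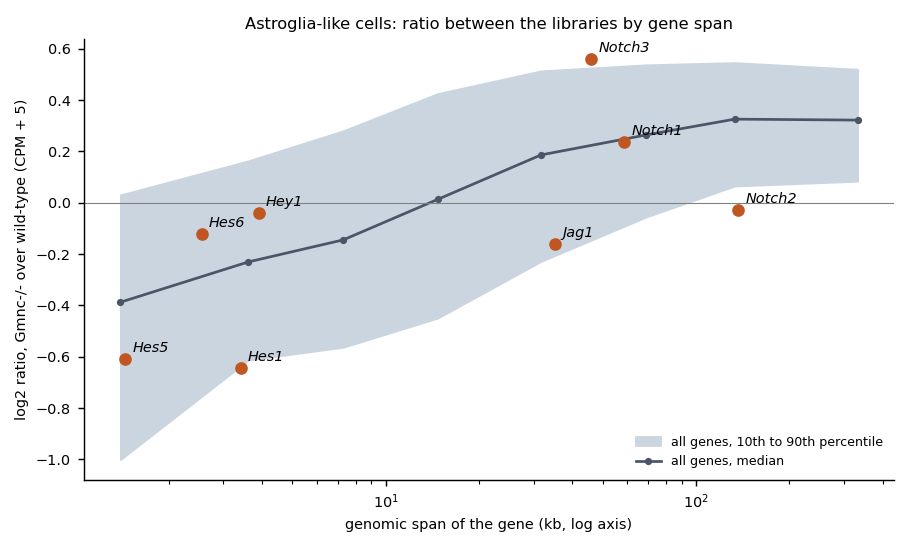
Log2 ratio of CPM + 5 between the libraries in astroglia-like cells (vertical axis) against genomic span in kb (log axis); the line is the median and the band the 10th to 90th percentile of all genes in 8 span ranges, and points are the 8 members with a mean of 20 CPM or more. Hes5 lies inside the band, Hes1 at its lower edge and Notch3 just above it, while Notch2 lies below it.

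No member with a mean of 20 CPM or more passed 1.5-fold in intermediate progenitor-like, excitatory neuron-like, interneuron-like or endothelial-like cells. In intermediate progenitor-like cells it was 0 of the 4 genes with enough counts, against 12.8% of all genes (8.47% higher and 4.29% lower), and Hes5 was lowest at a ratio of 0.716 (0.579 to 0.886). In excitatory neuron-like cells it was 0 of 1, Hes6, against 6.41% of genes (3.07% higher and 3.34% lower). In interneuron-like cells it was 0 of 4, against 6.72% (3.05% higher and 3.67% lower), with a Hes5 ratio of 0.673 (0.586 to 0.773). In endothelial-like cells it was 0 of 6, against 8.62% (4.88% higher and 3.74% lower). Jag1 had the ratio 0.690 (0.539 to 0.878) there, Hes1 0.846 (0.771 to 0.928) and Notch1 1.03 (0.899 to 1.17). Notch2 and Hes5, under the minimum in endothelial-like cells, were lower past 1.5-fold. Their ratios were 0.363 (0.201 to 0.619) for Notch2, from 79 and 17 UMIs, and 0.235 (0.117 to 0.433) for Hes5, from 86 and 12 UMIs. With called doublets kept, both of these directions changed, as given below. The Hes1 value differed between endothelial-like cells by their mural markers. Those with under 3 mural markers had 383 CPM (342 to 427) and 192 CPM (158 to 232) of Hes1, which did not overlap, and those with 3 or more had 358 CPM (336 to 380) and 346 CPM (318 to 375), which did. Notch1 had overlapping intervals in both sets, at 131 and 133 CPM and at 167 and 173 CPM.

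In mural-like cells, the other vascular class, Jag1 and Hes6 were lower past 1.5-fold among the 6 genes with enough counts, where 42.8% of genes differed in either direction (26.8% higher and 15.9% lower). Jag1 had 54.7 CPM (31.3 to 88.8) and 34.0 CPM (11.03 to 79.3), from 16 and 5 UMIs. Hes6 had 41.0 CPM (21.2 to 71.7) and 20.4 CPM (4.204 to 59.6), from 12 and 3 UMIs. Both ratio intervals spanned 1, so no difference was detectable for either at this depth. Notch3 in mural-like cells had a ratio of 1.46 (1.04 to 2.04) and Hes1 a ratio of 0.696 (0.492 to 0.970).

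Across the 11 ordered classes, the Hes1 interval lay below 1 in 9 and above 1 in none, though 5 of those 9 had a mean under 20 CPM. The share of all genes with such intervals in as many classes was not counted, here or for the other members. Hes1 was lower by over 1.5-fold in oligodendrocyte lineage-like cells, with a ratio of 0.513 (0.430 to 0.612), where 3% of genes were lower. In meningeal fibroblast-like cells, where 5.1% were lower, Hes1 (0.628, interval 0.534 to 0.736) and Jag1 (0.439) were both past that line. The Hes5 interval lay below 1 in 5 classes and above 1 in erythroid-like cells, and Hey1 intervals spanned 1 in all 11. One of the 5 was endothelial-like cells, with 22.8 CPM (18.3 to 28.2) and 5.38 CPM (2.78 to 9.39) of Hes5. Markers of astroglia differed there too: Fabp7 had a ratio of 0.174 (0.147 to 0.204), Tnc 0.215, Slc1a2 0.271, Aldoc 0.304 and Slc1a3 0.429, while Vim had 0.962, Gja1 1.08 and Sparcl1 1.52. The 8 apical progenitor markers summed to 1826 and 1326 CPM and the 8 astrocyte markers to 1395 and 2011 CPM in these cells, with none at 0. The part of astroglial RNA in the endothelial-like Hes5 values was not tested. Jag1 lay below 1 in 5 classes and above in none. In erythroid-like cells Notch1 had 3.56 and 10.9 CPM and Hes5 6.61 and 21.8 CPM, with both intervals above 1.

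**Figure D4:**
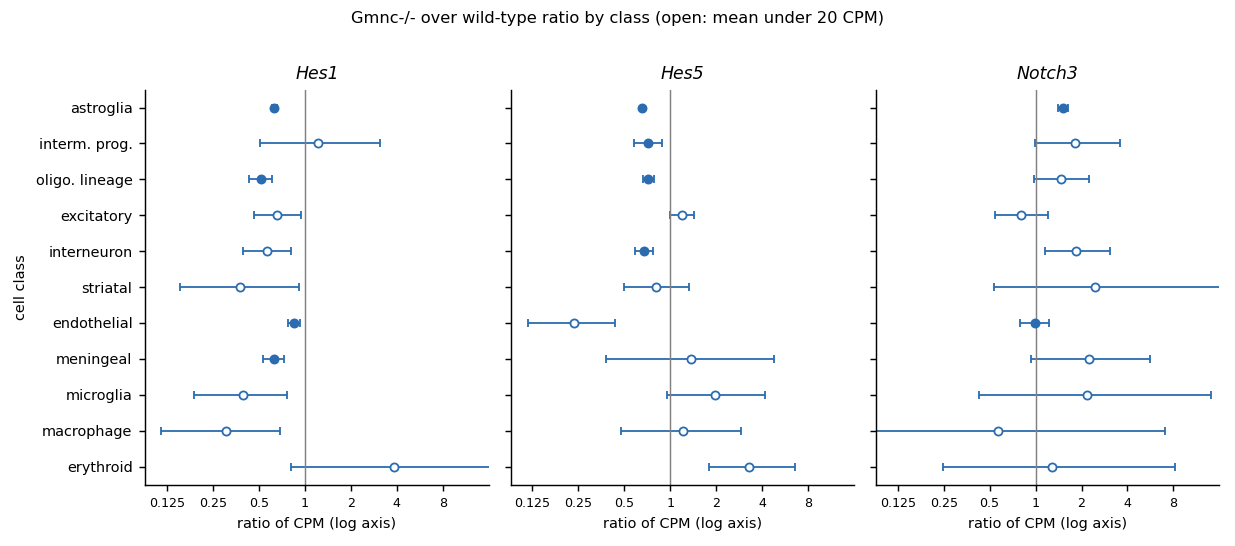
Ratio of CPM, Gmnc-/- over wild-type library, for Hes1, Hes5 and Notch3 in 11 classes on a log axis, with 95% conditional intervals (bars running past the axis are clipped) and open points where the mean was under 20 CPM. Hes1 points lie left of 1 in most classes, Hes5 points in astroglia-, oligodendrocyte lineage-, intermediate progenitor-, interneuron- and endothelial-like cells, and the Notch3 point of endothelial-like cells lies at 0.988.

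Of 44 other pathway genes, 27 had a mean of 20 CPM or more in astroglia-like cells, and of these 2 were higher and 0 lower by 1.5-fold in the Gmnc-/- library, with a median log2 ratio of 0.24. Of all 7650 genes there, 4.88% were higher and 3.8% lower, with a median of 0.17. Spen, a corepressor that holds RBPJ targets off, was among the 2 higher pathway genes, at 65.1 and 107 CPM. In intermediate progenitor-like cells 2 of 25 were higher and 0 lower, and Spen, at 70.7 and 145 CPM, was among the 2. Of all genes there, 8.47% were higher and 4.29% lower. In excitatory neuron-like cells 1 of 25 was higher and 0 lower, against 3.07% and 3.34% of all genes. In interneuron-like cells none of 25 differed, where 3.05% of all genes were higher and 3.67% lower. In endothelial-like cells, of 29 genes, Spen was higher (37.2 and 64.1 CPM), and the gamma-secretase subunit Ncstn (44.1 and 21.1 CPM) and Dtx3 (36.9 and 21.5 CPM) were lower. Of all genes in that class, 4.88% were higher and 3.74% lower.

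By role, the gene with the highest level in astroglia-like cells was Dner among the other ligands (83.6 and 106 CPM), Lfng among the sugar transferases that tune receptors (73.9 and 68.0 CPM), and Mib1 among the ligases that help ligands pull (78.3 and 89.8 CPM). Psenen led the proteases (171 and 127 CPM), Snw1 the nuclear complex (159 and 174 CPM), Itch the inhibitors (123 and 153 CPM) and Nrarp the other targets (70.4 and 50.2 CPM). Rbpj itself had 101 and 128 CPM. Notch4 had 5.24 and 6.74 CPM, and the ligand Dll4 1.31 and 1.41 CPM. The Nrarp ratio of 0.713 (0.661 to 0.768) was short of the 1.5-fold line.

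Shares of cells were compared after each cell was thinned to 2000 UMIs, which left 1869 wild-type and 3748 Gmnc-/- astroglia-like cells (40 and 184 were shallower). Hes5 UMIs were found in 67.0% (binomial interval 64.9 to 69.2) and 55.4% (53.8 to 57.0) of them, and in 88.7% and 75.3% before thinning. Hes1 was found in 35.2% (33.0 to 37.4) and 24.9% (23.5 to 26.3), Notch1 in 31.4% (29.3 to 33.5) and 36.2% (34.6 to 37.7), and Notch3 in 10.8% (9.44 to 12.3) and 15.4% (14.3 to 16.6). Erythroid-like cells, thinned alike, gave 1.66% and 3.66% for Hes5, 1.66% and 1.14% for Notch1 and 0.415% and 0.229% for Notch3. For Hes1 they gave 0 of 241 cells, which allows a share of up to 1.24%, and 1.37%. Median depths before thinning were 9476 and 6144 UMIs in the astroglia-like and 6389 and 4745 UMIs in the erythroid-like cells used. Dll1 was found in only 29 wild-type and 63 Gmnc-/- astroglia-like cells, 1.55% (1.04 to 2.22) and 1.68% (1.29 to 2.15), against 0.830% (0.101 to 2.97) and 0.229% (0.00579 to 1.27) in erythroid-like cells. The wild-type share of Dll1 was therefore not clear of the erythroid-like share at this depth.

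Over the whole astroglia-like class, Hes5 was found less often in cells with a Dll1 UMI, by intervals that did not overlap. Hes5 was found in 17.2% (5.85 to 35.8) of the 29 wild-type cells with Dll1 and in 67.8% (65.6 to 70.0) of those without. In the Gmnc-/- library the shares were 39.7% (27.6 to 52.8) of 63 cells and 55.7% (54.1 to 57.3). The cycling cluster 8, where Hes5 was low, held 16 of the 29 and 30 of the 63 cells with Dll1. Within that cluster the shares were 6.25% (0.158 to 30.2) against 55.0% (49.4 to 60.6) in the wild-type library and 30% (14.7 to 49.4) against 46.5% (42.6 to 50.3) in the Gmnc-/- library, the latter overlapping. In clusters 1 and 21 the intervals overlapped in both libraries, and in cluster 6 they overlapped for Gmnc-/- cells and 0 wild-type cells had Dll1. Hes6 was found in 20.7% (7.99 to 39.7) against 10.2% (8.87 to 11.7), overlapping intervals, and in 22.2% (12.7 to 34.5) against 10.6% (9.63 to 11.7). Hes1 and Hes5 went together over the whole class. Hes5 was found in 75.0% (71.5 to 78.3) of wild-type cells with a Hes1 UMI and 62.7% (59.9 to 65.4) of those without. Among Gmnc-/- cells the shares were 65.7% (62.6 to 68.8) and 52.0% (50.1 to 53.9). Cells with Hes1 had the higher Hes5 share in every cluster. Wild-type intervals stood apart in cluster 8 and overlapped in clusters 1, 6 and 21. Gmnc-/- intervals stood apart in clusters 1 and 6 and overlapped in clusters 8 and 21. The Hes5 shares of cells with and without a Notch1 UMI had overlapping intervals, with 68.9% (65.0 to 72.7) against 66.2% (63.5 to 68.8) in the wild-type library. Cells of a library are not replicates, and these shares describe 1 library each.

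Cycling cells, those with an Mki67 or Top2a UMI after thinning, had another balance of members. Cells under 2000 UMIs were left out of this split in every class. Among the astroglia-like cells used, 423 wild-type and 1048 Gmnc-/- cells were cycling, with 1446 and 2700 not. Dll1 stood at 15.1 CPM (12.3 to 18.4) in cycling and 4.14 CPM (3.14 to 5.35) in other wild-type cells, and at 19.0 CPM (16.3 to 22.0) and 6.11 CPM (5.01 to 7.39) in the Gmnc-/- library. Hes6 stood at 103 against 51.2 CPM and at 94.2 against 45.0 CPM. Hes5 was lower in cycling cells, at 642 CPM (623 to 662) against 1126 CPM (1108 to 1144) and at 444 CPM (430 to 457) against 744 CPM (731 to 757), and Notch2 and Notch3 were lower as well. Notch1 had overlapping intervals, at 201 against 202 CPM and at 229 against 242 CPM. Hes1 in cycling cells had 208 CPM (197 to 220) and 127 CPM (120 to 134), so it was lower in the Gmnc-/- library there too.

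Cycling interneuron-like cells (648 and 1526) had higher levels of several members than the other 1071 and 2720 cells of that class with 2000 or more UMIs. Notch1 had 117 CPM (109 to 126) in cycling and 36.7 CPM (31.7 to 42.2) in other wild-type cells, and 107 CPM (101 to 114) and 31.3 CPM (28.0 to 34.8) in the Gmnc-/- library. Hes6 had 159 against 79.5 CPM and 130 against 74.4 CPM, and Dll3 24.2 against 9.98 CPM and 22.0 against 9.08 CPM. Hes5 had 43.1 CPM (38.2 to 48.3) against 13.4 CPM (10.4 to 16.9) in the wild-type library. In the Gmnc-/- library it had 25.2 CPM (22.2 to 28.5) against 14.9 CPM (12.7 to 17.3). The libraries stood apart for Hes5 in cycling cells, and their intervals overlapped in the others. In intermediate progenitor-like cells Dll3 went the other way in the wild-type library, with 18.9 CPM (12.1 to 28.1) in cycling and 37.9 CPM (30.8 to 46.1) in other cells, and 26.8 and 35.5 CPM in the Gmnc-/- library.

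The genes whose level varied across classes most like each member were found among 7977 genes, by Pearson's r of log2(CPM + 5) over 22 points, the 11 classes of each library; the points share libraries and depth, and r is given as a description. Hes5 was most like the radial glia gene Fabp7 (r = 0.974), Acsbg1 (0.967) and Hepacam (0.965). Fabp7 was itself lower in astroglia-like cells of the Gmnc-/- library, with a ratio of 0.430 (0.428 to 0.433). Hes1 was most like Tcf7l1 (0.954), Id3 (0.945) and Slc38a3 (0.941), and Hey1 like 4930448N21Rik (0.929), Slc1a4 (0.927) and Pcx (0.911). Notch1 was most like Myo10 (0.896), Jam2 (0.894) and Sept8 (0.860), Notch2 like Mid1ip1 (0.926), Oat (0.920) and Aldh7a1 (0.909), and Notch3 like Pcx (0.943), 4930448N21Rik (0.921) and Stard4 (0.919). Genes among the most alike for Dll1 were Grin3a (0.895) and C1ql1 (0.889), and for Dll3 Rhbdl3 (0.883), Ppp1r14b (0.877) and Megf11 (0.870). Jag1 was most like Mxra7 (0.923), Lpar4 (0.913) and Il17rd (0.895), and Hes6 like Cdk2ap1 (0.944), Fam60a (0.925) and Mad2l2 (0.925).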

How the data were processed

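Raw UMI counts per gene and cell barcode were deposited by the authors for 1 library per genotype (10x 3' v3.1, per the labels' protocols). The submitters' processing notes name Cell Ranger 7.1.0 and the build mm10; intron counting is not given in the sources used here. The totals were 88905819 and 155482657 UMIs over 13033 and 27663 barcodes. Cells with at least 1000 UMIs and at most 10% mitochondrial UMIs were kept, and 460 and 4994 doublets called by Scrublet were removed. Cells were clustered (scanpy 1.11.5, leidenalg 0.10.2; 2000 variable genes, 30 components, resolution 1) without the pathway genes. Clusters were named from marker lists, with a minimum score of 1.9 chosen after the data were seen. Counts were summed per class and library; with 1 library per genotype there was no test. The members and lists were chosen with earlier results of these data known. All 10 members are described; other pathway genes are named where they differ by 1.5-fold in the 5 classes compared or lead their role in astroglia-like cells, and 3 most alike genes per member, except that results needing items withheld for evaluation are not reported here. On simulated data, 67 of 67 genes changed by 1.5-fold in astroglia-like cells (7650 genes) were recovered in direction. The simulated counts held counting error alone, with no difference between animals or libraries. They therefore check the direction of the calculation and not the differences reported here. Gene positions are from GENCODE vM21, promoter windows from RefSeq. Alternatives varied cell filters, doublets, resolution, scaling, prior, sex pattern and thinning.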

Additional observations from a re-analysis of the deposited data

How the results depend on the processing

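The count of 2 members past 1.5-fold in astroglia-like cells was 1 with the looser cell filter (500 UMIs, 20% mitochondrial), where Hes5 was just short of the line, and 2 under the other alternatives except a prior of 1 CPM, which gave 3 by adding Notch3. In male-pattern cells alone the 2 were Hes1, lower, and Notch3, higher. The count of 0 in intermediate progenitor-like cells became 1 (Hes5, lower) with median-of-ratios scaling and in female-pattern cells alone. The count of 0 in interneuron-like cells became 1 (Hes5, lower) at resolution 0.5, at resolution 2 and when clustering with the Notch pathway genes. The count of 0 in endothelial-like cells became 2 for the mean over cells, 1 (Jag1) in male-pattern cells alone and 2 with no minimum level. The count of 5 members highest in a progenitor class became 3 in female-pattern cells alone. The cause of these changes was not tested. Over the alternatives the log2 ratio in astroglia-like cells ran from -0.83 to -0.61 for Hes1 and from -0.81 to -0.52 for Hes5. Of 560 other values by gene, class and alternative, 492 stayed within their counting interval and 68 moved. In 0 did a value past 1.5-fold pass it in the other direction. Signs did change: with called doublets kept, endothelial-like Notch2 went from -1.04 to 0.42 and Hes5 from -1.42 to 0.49. Endothelial-like Hes5 kept its sign in 8 of 11 alternatives and Notch2 in 10. Without thinning, all 100 shares of cells with a UMI were higher, and at 4000 UMIs 96 of 100 were. No paired analysis was possible because each genotype has 1 library and its animals were pooled. No replicate could be left out for the same reason. Depth limits Dll1 and Dll3 in astroglia-like cells and all members in mural-like cells.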
